A study of Mus musculus with 6 samples.

Results

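Wnt signalling was followed through 10 genes in mouse libraries of Lphn2 knockout and wild type, and these 10 were picked by symbol out of 24421 in the deposited count tables. They comprise 4 ligands (Wnt4, Wnt5a, Wnt6 and Wnt11), 3 secreted antagonists (Dkk1, Dkk2 and Sfrp1) and 3 genes on the receiving side of the pathway (Axin2, Lef1 and Nkd1). The study holds 3 libraries from embryos homozygous for a knockout of Lphn2 and 3 from wild type embryos, all from C57BL/6N mice, taken at embryonic day 9.5 and labelled as whole embryo. Lphn2, now named Adgrl2, encodes the adhesion receptor latrophilin-2, and the comparison asks which transcripts differ between the groups. The labels give neither the allele nor the part of the gene removed, and they do not say whether a sample is 1 embryo or a pool, or which embryos were littermates. A p-value here weighs only the spread among these libraries, and some of that spread may be technical.

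Wnt proteins are secreted lipid-modified ligands that bind Frizzled receptors. In the canonical branch, with LRP5 or LRP6 as co-receptor, they stabilise beta-catenin, which acts with TCF and LEF proteins on target genes. The non-canonical branches act through Ror receptors and the planar cell polarity proteins. In the mouse uterus, Wnt4 is needed for the stromal cells around the implanting embryo to turn into decidua, and in the embryo Wnt signals pattern the body axis, the neural tube and the heart.

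The label of whole embryo was set against tissue markers. Libraries of both groups held abundant maternal decidual RNA: Prl8a2, a decidual prolactin, was read at 2900, 1279 and 5335 CPM (counts brought to a common library size by TMM scaling) in knockout replicates 1, 2 and 3, against 14989, 28746 and 17981 CPM in wild type replicates 1, 2 and 3. Markers of neural tube, somite and heart summed to between 14.6 and 29.7 CPM over 10 genes in knockout libraries and to between 53.4 and 213 CPM in wild type libraries, and the heart regulator Nkx2-5, too low to be tested, had counts of 0, 0 and 0 in knockout libraries, against 7, 0 and 20 in wild type libraries. Adgrl2 itself stood at 5.49, 1.67 and 2.78 CPM in knockout libraries, against 10.9, 7.56 and 15.96 CPM in wild type libraries (log2 fold change -1.78, adjusted p = 0.194, edgeR quasi-likelihood test). Tags from its 3' end may lie outside the deleted part, and some may be maternal, so these values are no check of the genotype. Maternal tissue in these libraries need not lack Lphn2, since the knockout is labelled for the embryos. In such mixtures, fewer cells of a type and less RNA per cell cannot be told apart. Of the other tissue markers, 0 passed the threshold in edgeR. Of 7 tested trophoblast genes 7 had a negative fold change, with sums of 51.2 to 3545 CPM in knockout and 1351 to 5787 CPM in wild type libraries, and knockout replicate 1, at 3545 CPM, stood apart from the other 2 of its group. Of 8 yolk sac genes 8 had a negative fold change (24.6 to 159 CPM in knockout and 321 to 583 CPM in wild type libraries), as had 6 of 6 erythroid genes (56.2 to 748 CPM in knockout and 1474 to 2217 CPM in wild type libraries) and 4 of 5 uterine epithelial genes (199 to 464 CPM in knockout and 230 to 441 CPM in wild type libraries). Knockout replicate 1 stood apart in these sums too. Its yolk sac sum was 159 CPM, against 24.6 and 25.2 CPM in knockout replicates 2 and 3. Its erythroid sum was 748 CPM, against 76.5 and 56.2 CPM, and its uterine epithelial sum 464 CPM, against 221 and 199 CPM. Most of the uterine epithelial sum came from Cdh1, the 1 gene of that list with a positive fold change. Cdh1 stood at 393, 218 and 195 CPM in knockout libraries, against 262, 330 and 183 CPM in wild type libraries. Of 5 endothelial genes 5 had a positive fold change (1171 to 1679 CPM in knockout and 822 to 1508 CPM in wild type libraries). The part of any of these tissues in the values of the Wnt genes was not tested. Total counts ran from 14476809 to 23887717 in knockout libraries and from 18352150 to 36213611 in wild type libraries.

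Wnt4, Wnt5a, Wnt6 and the antagonist Dkk2 were higher in every knockout library than in any wild type library, with log2 fold changes of 0.88 to 1.27, and Sfrp1 was lower in every knockout library. None of the 10 passed the threshold of 0.05 in edgeR after adjustment over 13848 genes. 9 of the 10 passed the filter on low counts. Of these 9, 4 lay higher in all 3 knockout libraries, where 12.1% of all tested genes did, and 1 lay lower, where 9.39% did. After adjustment, edgeR called 0 higher and 0 lower, against 0% and 0.0505% of all genes. Unadjusted, 4 were higher and 2 lower at p under 0.05, against 8.68% and 6.86% of all genes. DESeq2 called 2 higher (Wnt4 and Dkk2) and 1 lower (Sfrp1), against 3.39% and 2.79% of all genes, and limma-voom called 0. The median log2 fold change of the 9 was 0.26, beside -0.04 over all genes tested.

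Upstream sequence of 3 of the 4 higher genes is shown first, with that of Wnt11, a ligand whose groups overlapped. RefSeq windows of 250 bases before the transcription start (build GRCm38.p6) were found for 8 of the 10 genes, and Wnt5a and Sfrp1 had none. All 4 genes lie on the plus strand, and each run reads from 5′ to 3′. Capitals mark the GC box (GGGCGG, or CCGCCC on the other strand), the TATA box (TATAAA, or TTTATA) and the TCF/LEF core (CTTTGA, or TCAAAG). Matches that overlap each other form 1 longer run of capitals.
Wnt4 (chr4:137277385-137277488): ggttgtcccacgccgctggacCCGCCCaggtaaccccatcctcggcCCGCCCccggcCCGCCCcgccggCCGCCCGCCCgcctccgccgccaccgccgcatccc
Wnt6 (chr1:74771642-74771891): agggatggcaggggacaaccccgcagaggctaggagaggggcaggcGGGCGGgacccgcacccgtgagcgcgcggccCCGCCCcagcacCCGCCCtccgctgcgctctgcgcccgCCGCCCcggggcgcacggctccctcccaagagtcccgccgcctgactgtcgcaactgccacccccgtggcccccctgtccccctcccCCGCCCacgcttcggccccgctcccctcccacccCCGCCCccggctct
Dkk2 (chr3:132085042-132085291): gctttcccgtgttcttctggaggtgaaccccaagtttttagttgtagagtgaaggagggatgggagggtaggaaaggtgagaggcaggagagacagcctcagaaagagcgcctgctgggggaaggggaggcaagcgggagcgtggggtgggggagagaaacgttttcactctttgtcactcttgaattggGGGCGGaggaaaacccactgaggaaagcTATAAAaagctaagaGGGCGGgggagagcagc
Wnt11 (chr7:98834862-98835111): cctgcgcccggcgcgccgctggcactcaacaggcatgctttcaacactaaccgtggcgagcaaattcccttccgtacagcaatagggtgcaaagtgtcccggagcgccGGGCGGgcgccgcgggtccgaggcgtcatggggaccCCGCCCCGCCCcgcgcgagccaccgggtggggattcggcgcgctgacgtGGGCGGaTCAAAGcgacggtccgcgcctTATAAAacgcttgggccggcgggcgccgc

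Of the Wnt4 window, the first 104 bases are shown, since the GENCODE gene starts after them. The GC box occurred 8 times in the full Wnt4 window, 5 of them in the stretch shown, 6 times in Wnt6, 2 times in Dkk2 and 4 times in Wnt11. G and C made up 85.2%, 79.6%, 55.6% and 70.8% of the windows of Wnt4, Wnt6, Dkk2 and Wnt11, against a median of 52.4% over 32851 windows of the same length. At least 1 GC box stood in 32.7% of all windows, at least 1 TATA box in 12.4% and at least 1 TCF/LEF core in 13.8%. These shares count windows, and the 8 genes have 12 of them, with more than 1 for Lef1 and Wnt11. For Wnt11 the values above are those of the window shown. Counted by gene, the core was found for 3 of the 8, Dkk1, Lef1 and Wnt11, in Lef1 and Wnt11 in only 1 window each. The 3 genes shown that lay higher in the knockout had none in theirs.

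Wnt4 (mm10 chromosome 4, 137277489 to 137299726, plus strand), the ligand of decidual differentiation, was read at 63.4, 119 and 124 CPM in knockout replicates 1, 2 and 3, against 30.9, 53.9 and 42.3 CPM in wild type replicates 1, 2 and 3. The groups did not overlap, and knockout replicate 1 lay closest to wild type. The means were 102 ± 33.7 CPM in the knockout and 42.3 ± 11.5 CPM in wild type (SD, n = 3 each), a log2 fold change of 1.27 ± 0.32 (SE, 95% interval 0.52 to 2.02). This did not pass in edgeR (adjusted p = 0.176). It passed in DESeq2 (adjusted p = 0.00785) and without knockout replicate 1 (log2 fold change 1.52, adjusted p = 0.0338), where 1.77% of all genes were called higher, within 0.00785 to 0.574 over 16 alternatives.

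Wnt5a (chromosome 14, 28504750 to 28527448, plus strand), a ligand of the non-canonical branches, was read at 66.8, 111 and 111 CPM in knockout libraries, against 51.3, 39.4 and 66.1 CPM in wild type libraries. The gap between the groups was narrow, since knockout replicate 1 stood barely above wild type replicate 3. Its log2 fold change was 0.88 ± 0.28 (SE, 95% interval 0.23 to 1.53, adjusted p = 0.221, edgeR). Over the 16 alternatives the adjusted p stayed between 0.0526 and 0.588.

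Wnt6 (chromosome 1, 74771892 to 74785322, plus strand), a canonical ligand also made by the uterine stroma, was read at 25.5, 43.4 and 32.0 CPM in knockout libraries, against 13.7, 13.5 and 24.2 CPM in wild type libraries. As for Wnt5a, knockout replicate 1 and wild type replicate 3 were nearly level. The difference was a log2 fold change of 0.97 ± 0.31 (SE, 95% interval 0.23 to 1.71, adjusted p = 0.231, edgeR).

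Wnt11 (chromosome 7, 98835112 to 98855195, plus strand), a non-canonical ligand with roles in heart and kidney formation, was read at 1.88, 5.6 and 5.99 CPM in knockout libraries, against 2.75, 4.14 and 12.4 CPM in wild type libraries. Its groups overlapped, and wild type replicate 3 alone stood above the knockout range. The log2 fold change of -0.53 ± 0.67 (SE, 95% interval -2.12 to 1.05, adjusted p = 0.731, edgeR) turned positive, at 0.36, without that library. All 6 counts of Wnt11 were multiples of 4, and the gene has 6 annotated transcripts. Other genes named below also had counts with a common divisor, among them Myc (4), Wnt7b (3) and Wnt5b (3). If tags were counted several times over, the precision of these counts is lower than their size implies.

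**Figure D1:**
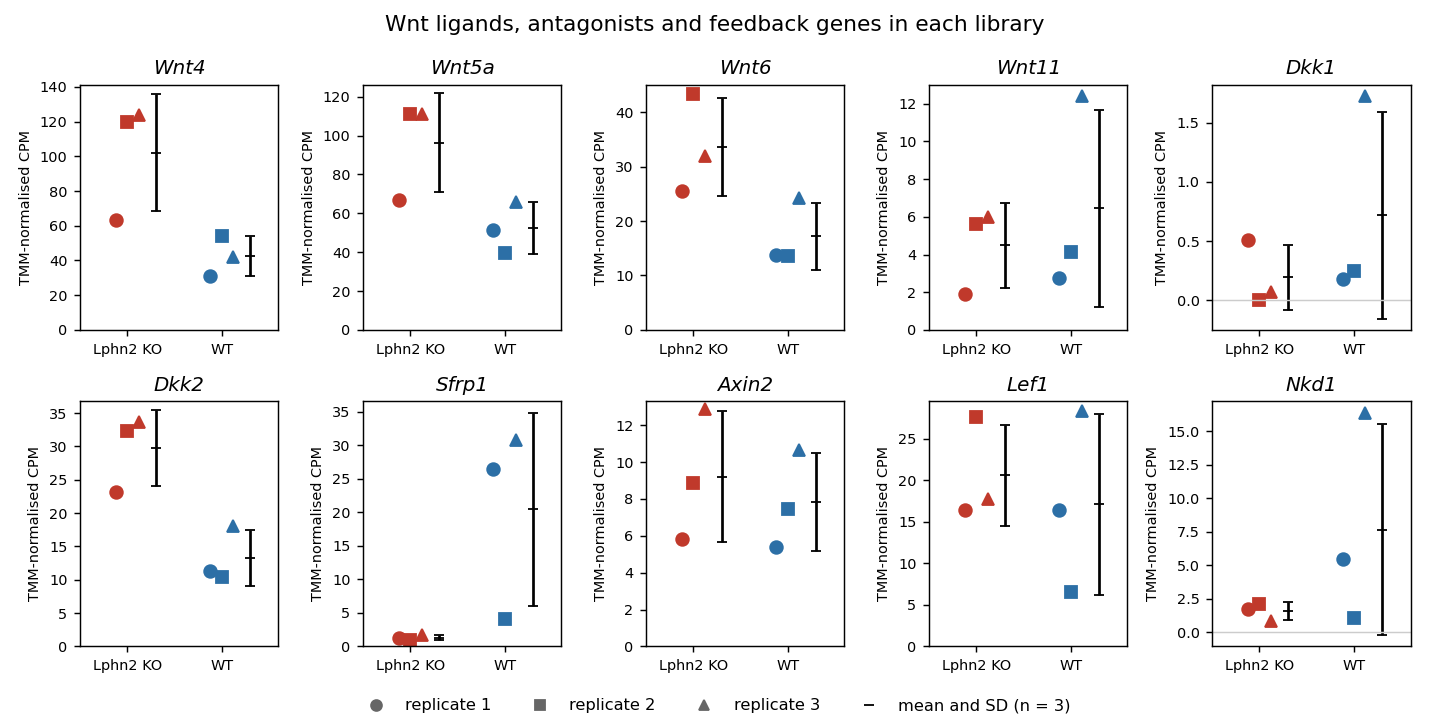
TMM-normalised CPM (vertical axes, each with its own scale) of the 10 genes in the 3 Lphn2 knockout and 3 wild type (WT) libraries, with symbols for the replicates and bars for the mean and SD. Wnt4, Wnt5a, Wnt6 and Dkk2 lay higher in all 3 knockout libraries than in any wild type library, Sfrp1 lay lower, and the groups overlapped for the other 5 genes.

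The antagonists did not share a direction. Dkk2 (chromosome 3, 132085292 to 132180304, plus strand), of the Dickkopf family that binds LRP5 and LRP6, was read at 23.2, 32.3 and 33.6 CPM in knockout libraries, against 11.3, 10.4 and 18.1 CPM in wild type libraries. Its groups were apart, as they were for the 3 ligands above, and its means were 29.7 ± 5.68 CPM in the knockout and 13.3 ± 4.25 CPM in wild type (SD, n = 3 each). The log2 fold change of 1.16 ± 0.28 (SE, 95% interval 0.49 to 1.83) did not pass in edgeR (adjusted p = 0.173) and passed in DESeq2 (adjusted p = 0.0132), within 0.0132 to 0.574 over the alternatives.

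Sfrp1 (chromosome 8, 23411502 to 23449632, plus strand), a secreted Frizzled-related protein that binds Wnt ligands outside the cell, was read at 1.25, 0.933 and 1.71 CPM in knockout libraries, against 26.5, 4.02 and 30.8 CPM in wild type libraries. The groups did not overlap, while the wild type libraries themselves were far apart, with replicate 2 low. On the log2 scale the fold change was -3.98 ± 0.76 (SE, 95% interval -5.76 to -2.19), the farthest from 0 among the 9 genes tested. It did not pass in edgeR (adjusted p = 0.166), and it passed in DESeq2 (adjusted p = 8.07e-07) and without wild type replicate 2 (log2 fold change -4.45, adjusted p = 0.0416), where 0.0754% of all genes were called lower, within 8.07e-07 to 0.574 over 15 alternatives.

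The high Sfrp1 of wild type replicate 1 came in a library with smooth muscle RNA. Cnn1, calponin of smooth muscle, was read at 0.627, 1.0 and 1.78 CPM in knockout libraries, against 87.8, 1.46 and 2.85 CPM in wild type libraries. Myh11, smooth muscle myosin, was read at 0.157, 0.533 and 1.71 CPM in knockout libraries, against 52.5, 1.58 and 1.25 CPM in wild type libraries. Over the whole list of 5 smooth muscle genes, 4 had a negative and 1, desmin (Des), a positive fold change, with sums of 2042 to 3573 CPM in knockout and 1024 to 1734 CPM in wild type libraries, most of it from Des. Acta2, smooth muscle actin, stood at 27.2, 33.5 and 29.7 CPM in knockout libraries, against 369, 25.0 and 90.3 CPM in wild type libraries. It was thus raised in wild type replicate 3 as well, the other wild type library with high Sfrp1. The rest of the list was not all raised with it there. Cnn1, at 2.85 CPM, stood above the knockout range and above wild type replicate 2, though far below wild type replicate 1. Myh11, at 1.25 CPM, and Actg2, at 1.33 CPM, lay within the knockout range, and Des, at 928 CPM, lay below it. Without wild type replicate 1, the log2 fold change of Sfrp1 was -3.73 (adjusted p = 0.345). Whether Acta2 and Sfrp1 of wild type replicate 3 share a source was not tested. The sample descriptions also carry a code of unstated meaning, whose first number sets wild type replicate 1 apart from the other 5 samples, so the value without that library is also the comparison among samples that share this number.

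Dkk1 (chromosome 19, 30545863 to 30549665, minus strand), the Dickkopf antagonist of head and limb formation in the embryo, was too low to be tested. Its counts were 13, 0 and 1 in knockout replicates 1, 2 and 3, against 5, 4 and 66 in wild type replicates 1, 2 and 3. In CPM this was 0.510, 0 and 0.0713 in knockout libraries, against 0.181, 0.244 and 1.72 in wild type libraries, and the count of 0 allows up to 0.2 CPM. The groups overlapped, and wild type replicate 3 held most of the tags.

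The feedback and target genes gave no common direction. Axin2 (chromosome 11, 108920349 to 108950783, plus strand), a scaffold of the beta-catenin destruction complex that canonical signalling induces in many tissues, was read at 5.84, 8.87 and 12.9 CPM in knockout libraries, against 5.40, 7.43 and 10.7 CPM in wild type libraries. The ranges lay almost on top of each other. Its log2 fold change was 0.23 ± 0.39 (SE, 95% interval -0.69 to 1.15, adjusted p = 0.802, edgeR), an interval that holds differences in both directions.

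Lef1 (chromosome 3, 131110471 to 131224356, plus strand), a DNA-binding partner of beta-catenin, was read at 16.5, 27.6 and 17.7 CPM in knockout libraries, against 16.4, 6.58 and 28.4 CPM in wild type libraries. Wild type replicates 2 and 3 stood at the 2 ends of the whole range, and the knockout lay between them. The log2 fold change was 0.26 ± 0.50 (SE, 95% interval -0.91 to 1.44, adjusted p = 0.823, edgeR), and it was -0.11 without wild type replicate 2 and 0.83 without wild type replicate 3.

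Nkd1 (chromosome 8, 88521354 to 88594884, plus strand), which binds Dishevelled and restrains the pathway, was read at 1.73, 2.13 and 0.855 CPM in knockout libraries, against 5.47, 1.10 and 16.4 CPM in wild type libraries. Wild type replicate 2 fell inside the knockout range, so the groups overlapped. The log2 fold change of -2.28 ± 0.90 (SE, 95% interval -4.40 to -0.17, adjusted p = 0.294, edgeR) shrank to -1.07 without wild type replicate 3.

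Wnt11, Dkk1, Sfrp1, Lef1 and Nkd1 all had their highest value in wild type replicate 3. That library also had the highest sum of neural, somite and heart markers, 213 CPM, against 85.6 and 53.4 CPM in wild type replicates 1 and 2. All 6 tested genes of that list had a negative fold change, 4 of the 10 were too low to be tested, and their part in the values of these 5 genes was not tested.

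**Figure D2:**
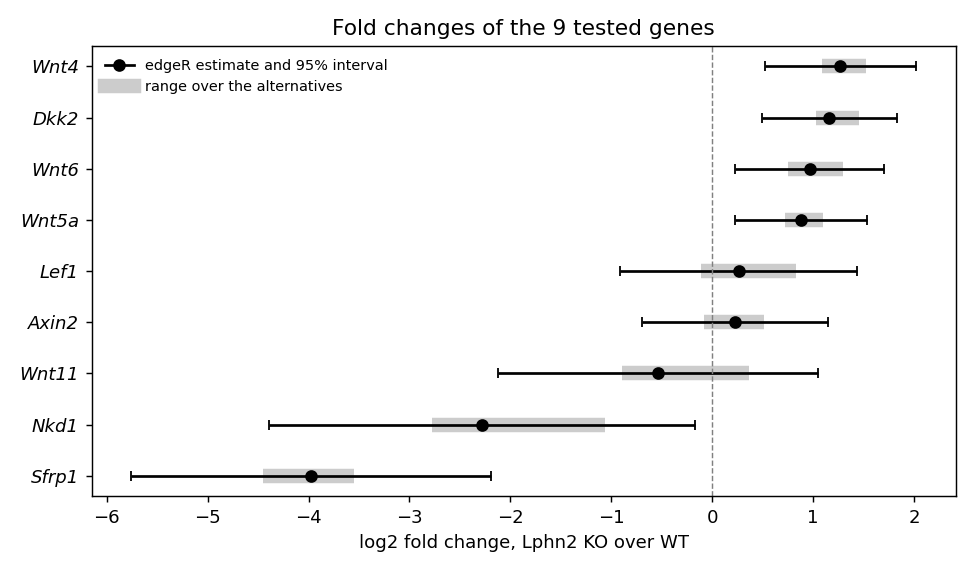
Log2 fold change of Lphn2 knockout over wild type for the 9 tested genes, with 95% intervals from the edgeR fit (black) and the range over the alternative analyses (grey). The intervals of Wnt4, Dkk2, Wnt6 and Wnt5a lay above 0 and those of Nkd1 and Sfrp1 below 0 before adjustment, and the grey ranges of Lef1, Axin2 and Wnt11 crossed 0.

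Several genes of the uterine stroma had the direction of Wnt4, Wnt5a, Wnt6 and Dkk2. Hoxa10, a homeobox gene of the uterine stroma, was read at 668, 1013 and 957 CPM in knockout libraries, against 470, 521 and 287 CPM in wild type libraries. Over the 9 decidual markers, 5 had a positive fold change (Hoxa10, Hoxa11, Hand2, Pgr and Bmp2) and 4 a negative one (Prl8a2, Prl3c1, Erv3 and Alpl), with sums of 3856 to 8329 CPM in knockout and 18337 to 33922 CPM in wild type libraries. The list thus had no common direction, the groups of Hand2 and Alpl overlapped, and 0 of the 9 passed the threshold in edgeR. Most of each wild type sum came from Prl8a2 (14989, 28746 and 17981 CPM), so the lower knockout sums do not describe the 5 genes with a positive fold change. Markers of natural killer cells, which populate the decidua, had a positive fold change in 6 of 6 genes, with sums of 183 to 331 CPM in knockout and 59.8 to 119 CPM in wild type libraries.

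**Figure D3:**
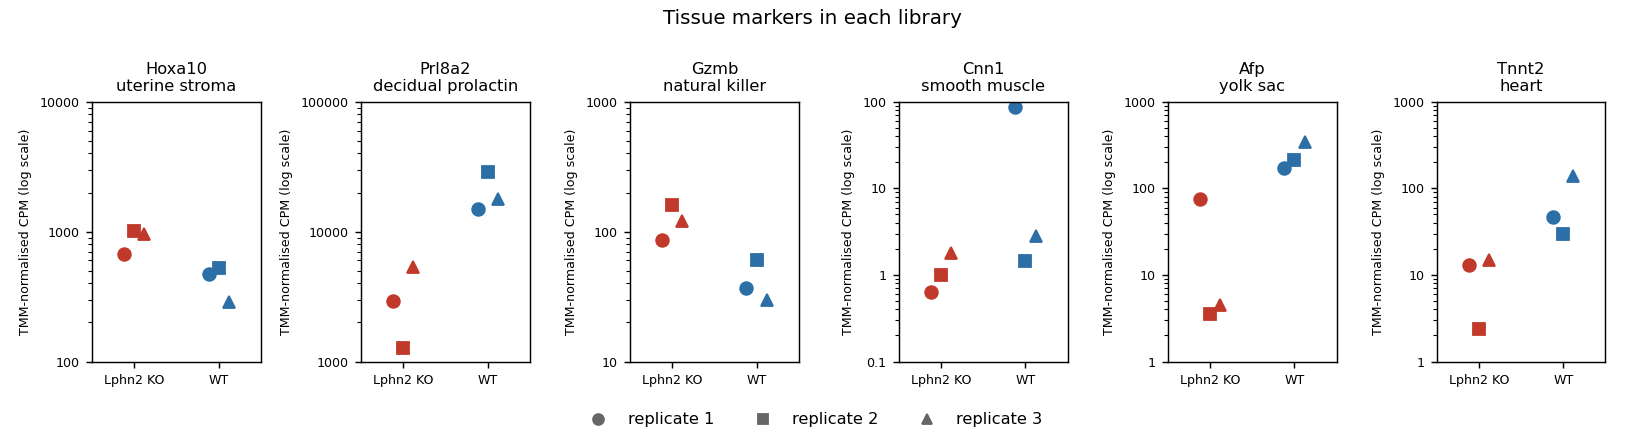
TMM-normalised CPM, on log axes, of 1 marker each of uterine stroma, decidua, natural killer cells, smooth muscle, yolk sac and heart in the Lphn2 knockout and wild type (WT) libraries. Hoxa10 and Gzmb lay higher and Prl8a2, Afp and Tnnt2 lower in every knockout library, and Cnn1 was by far the highest in wild type replicate 1.

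The rest of the Wnt pathway was described through 101 further genes in lists by role, of which 71 were tested. In edgeR, 0 were higher and 0 lower after adjustment, and unadjusted p under 0.05 was reached by 6 higher and 10 lower genes, where 8.68% and 6.86% of all genes reached it. DESeq2 called 1 higher and 7 lower, against 3.39% and 2.79% of all genes, and limma-voom called 0. Groups did not overlap in 9 genes that were higher and 6 that were lower, against 12.1% and 9.39% of all genes. The median log2 fold change was -0.45, beside -0.04 over all genes tested, with 24 genes positive and 47 negative.

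Among the other 15 ligands, 9 were too low to be tested, and the 6 tested ones had a median log2 fold change of -1.37. Wnt7b, a ligand of epithelia and the nervous system, stood at 30.6, 15.2 and 12.6 CPM in knockout libraries, against 37.5, 27.4 and 126 CPM in wild type libraries (log2 fold change -1.71, adjusted p = 0.268 in edgeR and 0.0400 in DESeq2). Wnt5b, a close relative of Wnt5a, stood at 0.235, 0.600 and 0 CPM in knockout libraries, against 1.09, 0.548 and 7.13 CPM in wild type libraries (-3.38, adjusted p = 0.298). Both had their highest value in wild type replicate 3, as the 5 genes above did, and in neither were the groups apart.

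Among 5 genes of ligand release and inactivation, 2 had a positive and 3 a negative fold change. Porcn, the acyltransferase that Wnt ligands need for secretion, stood at 14.5, 23.3 and 46.6 CPM in knockout libraries, against 68.2, 73.8 and 66.8 CPM in wild type libraries (log2 fold change -1.31, adjusted p = 0.213 in edgeR and 0.0223 in DESeq2). Wls, which carries the ligands to the cell surface and was chosen after its values were seen, stood at 105, 159 and 154 CPM in knockout libraries, against 104, 99.9 and 176 CPM in wild type libraries, with overlapping groups (log2 fold change 0.14, adjusted p = 0.840). The 2 genes that ligand secretion depends on thus did not show the same pattern. Tpbg, a membrane inhibitor of canonical signalling, stood at 6.35, 11.1 and 8.13 CPM in knockout libraries, against 4.71, 4.27 and 2.93 CPM in wild type libraries (1.10, adjusted p = 0.218).

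Rspo3, an R-spondin that amplifies Wnt signals through Lgr receptors, stood at 20.5, 29.7 and 36.9 CPM in knockout libraries, against 5.43, 11.6 and 10.5 CPM in wild type libraries. Its groups were well apart, and its log2 fold change of 1.66 ± 0.36 (SE, adjusted p = 0.166 in edgeR and 0.00175 in DESeq2) was the highest of the 71. Without knockout replicate 1 it passed in edgeR too (adjusted p = 0.0424), where 1.77% of all genes were called higher. Rspo2, of the same family, stood at 0.0392, 0.533 and 0.428 CPM in knockout libraries, against 0.906, 0 and 7.53 CPM in wild type libraries (-3.13, adjusted p = 0.415), and its groups overlapped.

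Of the 14 other antagonists, 7 were tested, with a median log2 fold change of -0.93. Kremen1, a receptor for Dickkopf proteins, stood at 39.4, 44.5 and 48.4 CPM in knockout libraries, against 26.5, 32.4 and 26.2 CPM in wild type libraries (log2 fold change 0.64, adjusted p = 0.190), higher in every knockout library as its ligand Dkk2 was. Sfrp2 stood at 0.588, 0.0667 and 0.0713 CPM in knockout libraries, against 2.93, 1.04 and 21.6 CPM in wild type libraries (-4.96, adjusted p = 0.191). Its counts were only 15, 1 and 1 in knockout libraries, against 81, 17 and 828 in wild type libraries, and wild type replicate 3 held most of the tags. Frzb, a further Frizzled-related protein chosen after its values were seen, stood at 6.47, 1.67 and 2.71 CPM in knockout libraries, against 29.96, 7.5 and 15.9 CPM in wild type libraries (-2.28, adjusted p = 0.194). Sfrp1, Sfrp2 and Frzb thus each lay lower in every knockout library, and all 3 passed in DESeq2 (adjusted p = 8.07e-07, 0.000894 and 0.00846). Sfrp4 and Sfrp5, also named after their values were seen, had overlapping groups and log2 fold changes of -1.06 and -0.93.

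All 16 receptors were tested, with a median log2 fold change of -0.17. Fzd3, a Frizzled of the nervous system, stood at 4.43, 1.13 and 1.35 CPM in knockout libraries, against 19.5, 4.08 and 53.1 CPM in wild type libraries (-3.44, adjusted p = 0.194 in edgeR and 0.00108 in DESeq2). Ror2, a receptor of Wnt5a, stood at 1.33, 0.400 and 0.428 CPM in knockout libraries, against 3.51, 1.22 and 5.36 CPM in wild type libraries (-2.19, adjusted p = 0.251). In both, wild type replicate 2 reached into the knockout range. The receptor Ror2 and its ligand Wnt5a thus had fold changes of opposite sign.

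Inside the cell, Ctnnb1, which encodes beta-catenin, stood at 1448, 1474 and 1581 CPM in knockout libraries, against 1146, 1219 and 1079 CPM in wild type libraries. The groups were apart, with a small log2 fold change of 0.39 ± 0.16 (SE, adjusted p = 0.309, edgeR). Dvl1, a Dishevelled, stood at 47.9, 76.1 and 59.2 CPM in knockout libraries, against 44.5, 44.6 and 46.0 CPM in wild type libraries (0.44, adjusted p = 0.352). These were the 2 smallest p among 11 transducers tested, whose median was -0.17.

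Of the TCF factors and cofactors, 10 were tested, with a median log2 fold change of -1.02. Tcf7l2, a DNA-binding partner of beta-catenin, stood at 120, 66.5 and 63.3 CPM in knockout libraries, against 192, 121 and 480 CPM in wild type libraries (-1.66, adjusted p = 0.224 in edgeR and 0.0126 in DESeq2). Tle4, a corepressor that binds TCF factors, stood at 37.2, 41.5 and 33.1 CPM in knockout libraries, against 53.0, 50.6 and 106 CPM in wild type libraries (-0.91, adjusted p = 0.248). Both lay lower in every knockout library, though for Tcf7l2 knockout replicate 1 was level with wild type replicate 2.

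Of 11 other feedback and target genes, 3 were tested and the rest were too low. Ccnd1, cyclin D1, stood at 62.1, 67.1 and 73.8 CPM in knockout libraries, against 123, 49.2 and 191 CPM in wild type libraries (log2 fold change -0.84, adjusted p = 0.401). Myc stood at 69.5, 38.7 and 47.9 CPM in knockout libraries, against 47.96, 42.2 and 39.0 CPM in wild type libraries (0.27, adjusted p = 0.617). As for Axin2, Lef1 and Nkd1, the groups of both overlapped.

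In the planar cell polarity list, 8 of 8 genes were tested and 7 had a negative fold change. Prickle1, a cytoplasmic polarity protein, was the exception, at 35.3, 62.3 and 59.0 CPM in knockout libraries, against 34.1, 28.4 and 26.1 CPM in wild type libraries (0.82, adjusted p = 0.214). Without knockout replicate 1, where 1.77% of all genes were called higher, Prickle1 had adjusted p = 0.0381. Celsr2, a polarity cadherin of the nervous system, stood at 0, 0.933 and 0.143 CPM in knockout libraries, against 1.99, 0.731 and 19.2 CPM in wild type libraries (-4.42, adjusted p = 0.270 in edgeR and 0.0230 in DESeq2). Its groups overlapped, and wild type replicate 3 held most of its tags, with counts of 0, 14 and 2 in knockout and 55, 12 and 734 in wild type libraries.

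**Figure D4:**
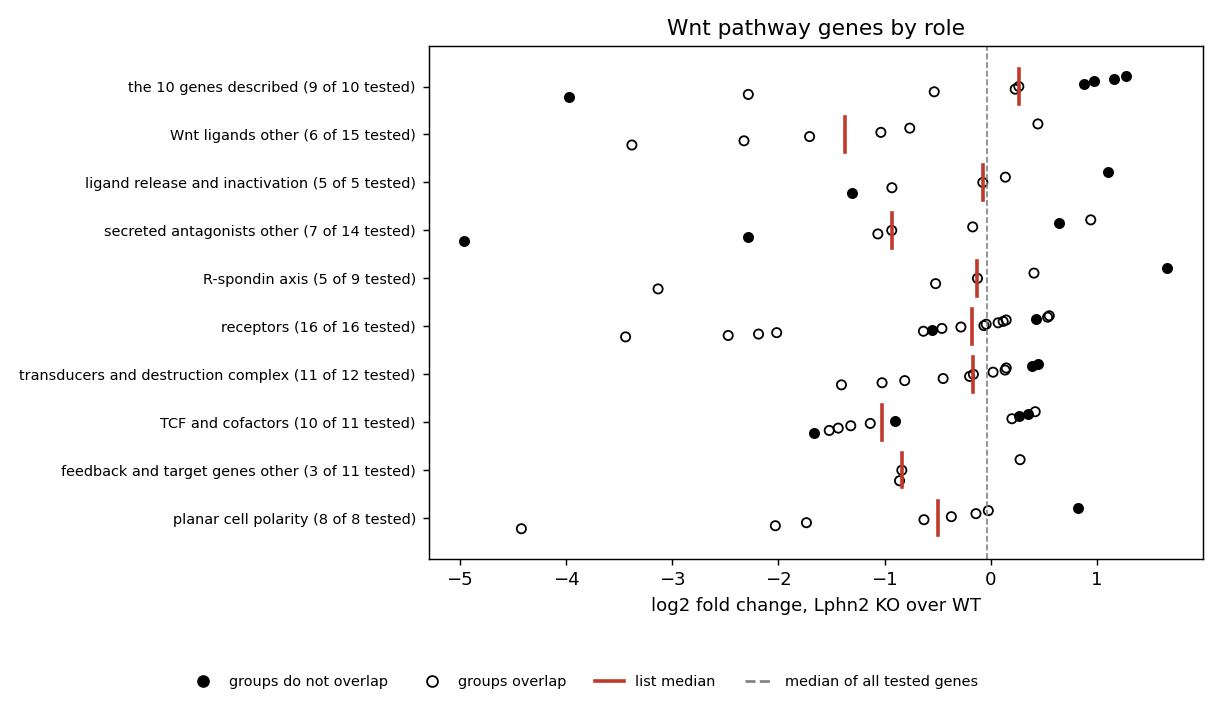
Log2 fold change of Lphn2 knockout over wild type for each tested gene of the Wnt pathway by role (1 point a gene), with filled points where the groups do not overlap, red bars for list medians and a dashed line for the median of all tested genes. The 9 tested of the 10 genes described have a median of 0.26 and the 6 tested of the 15 other ligands one of -1.37.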

How the data were processed

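Per the labels' protocols, Trizol was used to harvest RNA, of which 500 ng went into the Lexogen Quant-Seq kit, which reads tags at the 3' ends of transcripts. The authors deposited 1 table of raw counts per gene symbol for each sample. The tools named per the submitters' processing notes are Bowtie2 and edgeR, and the build is mm10. The annotation and the handling of strand are not given here by any label. Genes of the opposite strand overlap exons of Adgrl2, Wnt5a, Wnt11, Axin2 and Lef1, and without knowledge of strand their reads cannot be told apart.

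Counts were filtered with filterByExpr (minimum count of 10, leaving 13848 genes), scaled by TMM and compared between knockout and wild type with the quasi-likelihood test of edgeR 4.0.16 (R 4.3.3), with p-values adjusted by Benjamini-Hochberg over all genes. Any adjusted p with no other tool named comes from this test. It was tested on simulated data with the same dispersion for all genes, a simpler setting than these libraries. Levels are TMM-normalised CPM, and 95% intervals use the t quantile of the fit. Alternatives were other scalings and filters, DESeq2 1.42.0, limma-voom (limma 3.58.1), a replicate block, common divisors removed, identical symbols merged and each library left out. The limit of a count of 0 is 3 counts and covers counting error only. The genes and lists were chosen with earlier results of these data known. All 10 genes are named, and of each pathway list the 2 tested members with the smallest p. Positions come from GENCODE M21 (mm10) and promoters from RefSeq GRCm38.p6. Figures used Python 3.11.15, pandas 2.3.3, numpy 2.4.6 and matplotlib 3.10.9.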

Additional observations from a re-analysis of the deposited data

How the results depend on the processing

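Wnt4, Wnt5a, Wnt6, Dkk2, Sfrp1 and Nkd1 kept the sign of their fold change under every alternative run. With 1 library left out at a time, Wnt11 ranged from -0.89 to 0.36 (positive without wild type replicate 3), Axin2 from -0.084 to 0.51 (negative without knockout replicate 3) and Lef1 from -0.11 to 0.83 (negative without wild type replicate 2). Of the 10 genes, DESeq2 called 2 higher and 1 lower, against 0 and 0 in edgeR, and with 1 library left out at a time edgeR called 0 to 1 higher and 0 to 1 lower. Of the other pathway genes DESeq2 called 1 higher and 7 lower, against 0 and 0 in edgeR, and leaving out 1 library gave 0 to 3 in each direction. The 3 in each direction, of 77 tested, came without knockout replicate 1. There 252 of all 14249 genes tested (1.77%) were called higher and 466 lower. Over all genes, 0 were higher and 7 lower in edgeR, 470 and 387 in DESeq2, and 0 to 252 and 0 to 466 with 1 library left out, the highest of both without knockout replicate 1. With a replicate block, or with 1 symbol kept per identical set of counts, 0 were lower.

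Replicate numbers showed no clear pairing of the samples: deviations from the group means of same-numbered samples correlated at 0.127, -0.024 and 0.071. Knockout replicates 1 and 3 correlated best with the wild type library of their own number, and knockout replicate 2 with wild type replicate 3 (0.067). With 3 libraries in each group, such correlations cannot exclude a pairing. With the replicate block, 0 of the 10 genes were called, as without it, and Wnt4 had adjusted p = 0.199. The filter of at least 5 CPM in 3 libraries removed Sfrp1 and Nkd1. Depth limits Dkk1, whose counts were 0 to 13 in knockout and 4 to 66 in wild type libraries.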
